A study of Mus musculus with 24 samples.

Results

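RNA of wild-type (WT) mouse CD4 T cells was compared between cells activated through CD3 and CD28 for 24 h and resting cells, in the cohort that served as the control for deletion of Acly, the gene of ATP citrate lyase. The comparison rests on 6 of the 24 libraries of the series, 3 activated and 3 resting, taken by their labels. It covers the 25136 of 46981 genes of the deposited table that reached at least 1 RPM in 3 of these 6 libraries. RPM is the deposited unit, the share of a library that a gene takes, scaled so that each library sums to 1000000. The labels give the genotype of both groups as WT and the treatment of the resting group as none. The strain, age and sex of the mice, any floxed allele or Cre carried by the controls, and the time that resting cells spent in culture are not stated in the labels. The series also holds Acly knockout cells made with Cre under the Cd4 promoter, and a second cohort with its own WT cells for Pdha1, a subunit of pyruvate dehydrogenase. Its question is how losing either source of acetyl-CoA alters activation, and the WT cells give the response that a loss is measured against.

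A naive CD4 T cell is small and circulates through lymphoid organs, held in quiescence by factors such as KLF2 and by signals through the interleukin 7 receptor. Engagement of the T cell receptor (mimicked by antibody to CD3) together with the costimulator CD28 turns on NF-kappa B, NFAT and AP-1, then MYC and IRF4, and the cell makes interleukin 2 and its high-affinity receptor. Within a day such a cell enlarges, raises its uptake and use of nutrients, builds ribosomes and mitochondria and enters the cell cycle.

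The 2 groups differed in depth and in background. Recovered counts, before correction for collisions among molecular identifiers, came to 880865, 1087675 and 965724 in activated libraries 1 to 3. Resting libraries 1 to 3 had 664824, 517689 and 544738. Thus 3 counts, the limit below which a gene at 0 cannot be placed, were worth 2.37 to 2.99 RPM in activated and 3.48 to 4.47 RPM in resting libraries. Folds by pooled counts, given below, divide corrected counts of a gene by these uncorrected totals. Rises by pooled counts and their intervals are therefore somewhat too small, and falls somewhat too large. Genes of smell and pheromone receptors, families without a known use in T cells, came to 30239 to 40501 RPM in activated and 95846 to 106813 RPM in resting libraries. Other protein-coding genes made up 72.2% to 74.8% of activated and 50.4% to 55.1% of resting libraries. The cell type label was checked on markers. Cd4 was counted at 259, 298 and 242 RPM in activated and 103, 105 and 49.3 RPM in resting cells and Cd3e, part of the receptor complex, at 153, 192 and 251 RPM in activated and 58.3, 56.6 and 31.3 RPM in resting cells. The B cell marker Cd79a stood at 0, 0.789 and 0 RPM in activated and 2.32, 1.41 and 0 RPM in resting cells, and Cd8a at 1.99, 3.16 and 0 RPM in activated and 6.96, 1.41 and 4.47 RPM in resting cells, all near the floor. Other members of their lists were not, among them Ighm, whose values are given further below. B cell and class II markers summed to 275 to 362 RPM per library and CD8 and NK markers to 119 to 201 RPM. Resting library 3 stood apart within its group, with lower values of Cd4, Cd3e and other T cell genes. The third library of both states also had more Xist and less of the Y-linked Ddx3y than the other 2 of its group. Xist stood at 3.99, 9.48 and 63.9 RPM in activated and 9.28, 15.5 and 40.3 RPM in resting cells, and Ddx3y at 74.4, 93.6 and 5.28 RPM in activated and 57.2, 45.3 and 19.4 RPM in resting cells.

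**Figure D1:**
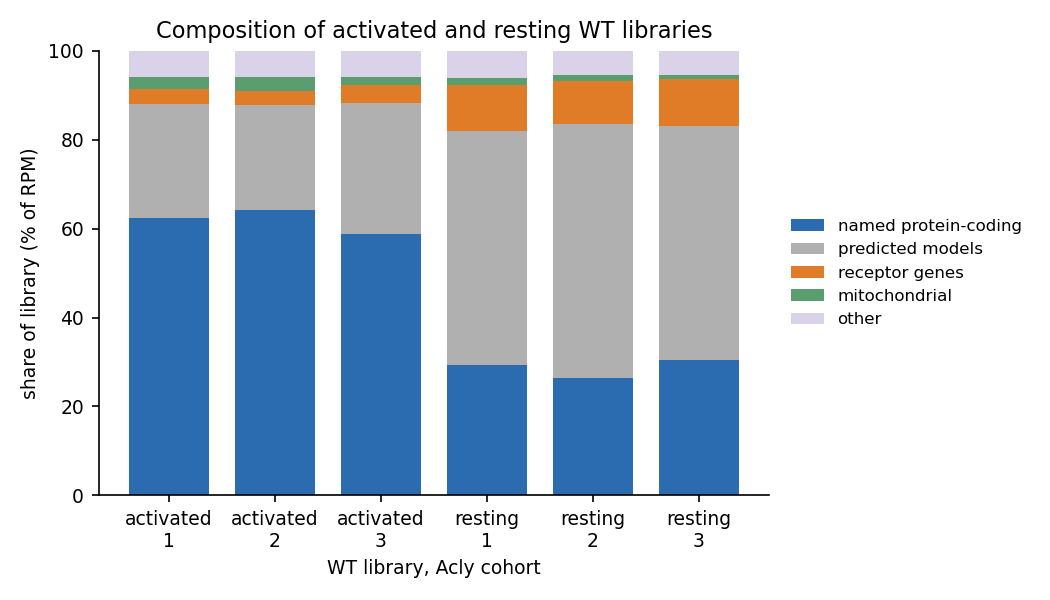
Share of each WT library, in percent of its RPM, taken by named protein-coding genes, predicted gene models, smell and pheromone receptor genes, mitochondrial transcripts and all other genes, with the 3 activated libraries left of the 3 resting ones. Named protein-coding genes took 58.7% to 64.1% of activated and 26.3% to 30.5% of resting libraries, and predicted models 23.8% to 29.4% of activated and 52.5% to 57.2% of resting ones.

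The first principal component of the 6 libraries held 81.3% of the variance and divided activated from resting cells. Depth and the share of receptor genes divide them in the same way, so their part in that component cannot be told apart from that of activation. Genes for protein synthesis, mitochondria, glycolysis and DNA replication rose, and genes that include the quiescence factor Klf2 and the egress receptor S1pr1 fell. On RPM, limma (a linear model of log2(RPM + 0.5) over all genes, with Benjamini-Hochberg adjustment at 0.05) called 6430 genes higher, or 25.6% of those tested, and 7229 lower, or 28.8%. The median log2 change over all genes tested was −0.62 and that of receptor genes −1.63, while named protein-coding genes divided into 4704 higher and 2888 lower of 13685. The labels do not say that the 3 libraries of a group came from separate animals, so the p-values cover only the spread among these samples, which may be technical. In such bulk samples, a change in the share of cells of a type and a change in RNA per cell cannot be told apart.

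The split between higher and lower genes depended on what was held constant. After composition scaling with TMM, which assumes that most genes do not change, 7371 genes (29.3%) were higher and 4458 (17.7%) lower, and the share of calls that were higher was 62.3%, against 47.1% on RPM. No gene was called in opposite directions on RPM and TMM. Relative to RPM, TMM moved the log2 change of well measured genes by 0.42, a scaling to all protein-coding genes moved it by −0.49, a scaling to receptor genes by 1.54 and a scaling to named protein-coding genes by −1.09. These are medians over 3480 genes with a mean of at least 20 RPM in both groups, and genes with fewer counts moved by other amounts. A small fall on RPM can thus turn into a rise with receptor genes held constant, and a small rise into a fall with named protein-coding genes held constant. These 2 scalings bound the range, with 10133 genes higher and 115 lower in the receptor scaling and 3992 higher and 13170 (52.4%) lower in the other. In what follows, "under every scaling" means called in the same direction on RPM and under all 4 of these scalings. That held for 3992 higher genes (15.9% of those tested) and 115 lower genes (0.458%). Values are on RPM unless another scaling is named, and the error after ± is the standard error of the fitted log2 change.

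**Figure D2:**
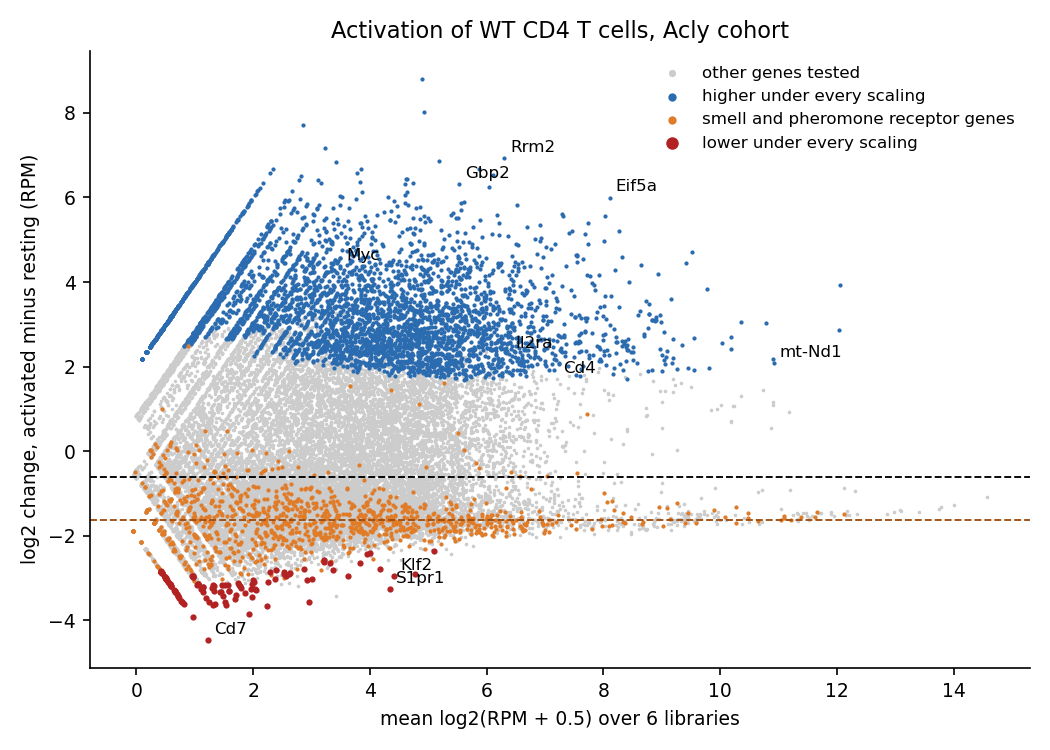
Log2 change of activated against resting WT cells on the vertical axis, from the fit on log2(RPM + 0.5), against the mean log2(RPM + 0.5) of the 6 libraries for the 25136 genes tested. Grey points are the other genes tested, orange points receptor genes, blue and red points genes called higher or lower under every scaling; the dashed lines mark the median of all genes (−0.62) and of receptor genes (−1.63).

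Transcription factors that act downstream of the T cell receptor stood higher in activated cells. Of 42 tested members 25 were higher and 2 lower, with a median log2 change of 2.61, or 2.05 with members at 0 in a group set to their bound, and all 25 were higher under every scaling. Myc (ENSMUSG00000022346, GRCm38 chromosome 15, 61985391 to 61990374), the regulator of growth and metabolism, stood at 55.2, 50.9 and 46.9 RPM in activated libraries 1 to 3, against 3.48, 1.41 and 1.49 RPM in resting libraries 1 to 3. Each activated value was more than 10 times each resting value (log2 change 4.38 ± 0.42, limma adjusted p = 2.78e-06). Nfkb2 (ENSMUSG00000025225, GRCm38 chromosome 19, 46304320 to 46312385), the p100 precursor of non-canonical NF-kappa B, stood at 223, 273 and 223 RPM in activated and 6.96, 8.46 and 4.47 RPM in resting cells. Its groups were far apart as well (log2 change 5.11 ± 0.30, limma adjusted p = 6.26e-08). Irf4, which sets the strength of the response to the receptor, stood at 199, 225 and 173 RPM in activated and 3.48, 2.82 and 1.49 RPM in resting cells. Irf8, a related factor, stood at 360.3, 479.6 and 353 RPM in activated and 1.16, 4.23 and 4.47 RPM in resting cells. Neither gene had overlapping groups, and a resting library held at most 3 counts of either. The early response genes Egr2 and Nr4a1, which report receptor signalling, had 3 and 2 resting counts in all. Egr2 was 19.2-fold higher by pooled counts, 95% counting interval 6.39 to 94.8, limma adjusted p = 1.05e-04. Nr4a1 was 34.7-fold higher by pooled counts, 95% counting interval 9.40 to 290.1, limma adjusted p = 3.21e-05. Further rises were those of Batf (4.08 ± 0.68), the AP-1 partner of IRF4, of Nfatc1 (2.72 ± 0.29), and of Xbp1 (4.57 ± 0.71), which enlarges the secretory pathway. The 2 members that were lower on RPM were the Ikaros family factor Ikzf4 (−1.06 ± 0.31) and Maf (−0.80 ± 0.29). Members that went against the rest of their list were picked out, throughout, once the values were known.

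Several cytokine and chemokine genes had few or no counts in resting cells and many in activated ones. Of 24 tested ligands and cytotoxic mediators 16 were higher and 0 lower, with a median log2 change of 3.70, or 2.47 with members at 0 in a group set to their bound; 14 were higher under every scaling. Interleukin 2, Il2, the growth factor of activated T cells, stood at 53.2, 34.1 and 20.3 RPM in activated libraries 1 to 3, against 2.32, 2.82 and 0 RPM in resting libraries 1 to 3. The activated values spread widely but each lay above every resting one (log2 change 4.34 ± 0.68, limma adjusted p = 1.78e-04). Tnf stood at 43.1, 42.9 and 50.5 RPM in activated and 1.16, 0 and 0 RPM in resting cells, that is, with a single resting count, and was 90.7-fold higher by pooled counts, 95% counting interval 16.03 to 3604, limma adjusted p = 3.22e-06. Interferon gamma, Ifng, stood at 47.1, 46.9 and 46.9 RPM in activated and 0, 0 and 0 RPM in resting cells. Granzyme B, Gzmb, a cytotoxic protease, stood at 65.3, 149 and 117 RPM in activated and 0, 0 and 0 RPM in resting cells. Both genes had no resting count, so that their folds are bounds: Ifng was at least 11.6-fold higher and Gzmb at least 27.3-fold higher. The lymphotoxin gene Lta was 22.8-fold higher by pooled counts, 95% counting interval 7.60 to 112. The chemokine gene Ccl3 was 30.9-fold higher by pooled counts, 95% counting interval 8.34 to 259. Ccl4, its relative, stood at 213, 302 and 183 RPM in activated and 2.32, 1.41 and 2.98 RPM in resting cells (log2 change 6.42 ± 0.34, limma adjusted p = 3.32e-08). Mif, the macrophage migration inhibitory factor, was already present at rest, at 1088, 1154 and 1066 RPM in activated and 34.9, 22.6 and 13.4 RPM in resting cells (log2 change 5.62 ± 0.30, limma adjusted p = 3.87e-08). Il21, a cytokine of follicular helper cells, stood at 2.99, 1.58 and 4.40 RPM in activated and 0, 2.82 and 5.96 RPM in resting cells, and was not called.

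Receptors and costimulators rose too. Of 36 tested activation receptors 24 were higher and 2 lower (median log2 change 2.08), 17 of them higher under every scaling. Cd69, which keeps activated cells in lymph nodes by binding the receptor S1PR1, stood at 217, 207 and 173 RPM in activated and 8.12, 15.5 and 7.45 RPM in resting cells. It was among the clearest differences of the list (log2 change 4.27 ± 0.31, limma adjusted p = 3.21e-07). The alpha chain of the interleukin 2 receptor, Il2ra, stood at 166, 226 and 166 RPM in activated and 38.4, 31.1 and 43.3 RPM in resting cells. Its groups did not overlap (log2 change 2.29 ± 0.26, limma adjusted p = 1.26e-05), but it was far from 0 in cells labelled as resting. Tnfrsf4, the costimulator OX40, stood at 177, 148 and 138 RPM in activated and 4.64, 2.82 and 1.49 RPM in resting cells. Icos, another costimulator, stood at 201, 189 and 184 RPM in activated and 20.9, 19.8 and 16.4 RPM in resting cells. In both genes every activated library was above every resting one. Ctla4, the inhibitory receptor that competes with CD28, stood at 1.99, 3.95 and 2.64 RPM in activated and 1.16, 0 and 1.49 RPM in resting cells, too few counts for a call (limma adjusted p = 0.112). The 2 lower members were Tigit (−1.67 ± 0.55), an inhibitory receptor, and Ifngr1 (−1.58 ± 0.43), the ligand-binding chain of the interferon gamma receptor.

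Feedback genes of interleukin 2 signalling were higher in 15 of 19 tested members and lower in 0, with a median log2 change of 2.68. Socs1, a suppressor of cytokine signalling, stood at 232, 344 and 296 RPM in activated and 9.28, 15.5 and 5.96 RPM in resting cells (log2 change 4.84 ± 0.34, limma adjusted p = 1.99e-07). Cish, of the same family, stood at 68.3, 82.3 and 80.1 RPM in activated and 8.12, 4.23 and 8.94 RPM in resting cells (log2 change 3.41 ± 0.34, limma adjusted p = 4.27e-06). Socs2 did not follow them: it stood at 55.2, 60.5 and 46.1 RPM in activated and 60.7, 41.01 and 96.005 RPM in resting cells and was not called (limma adjusted p = 0.579). The survival kinases Pim1 (1.60 ± 0.38) and Pim2 (4.58 ± 0.28) also rose.

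**Figure D3:**
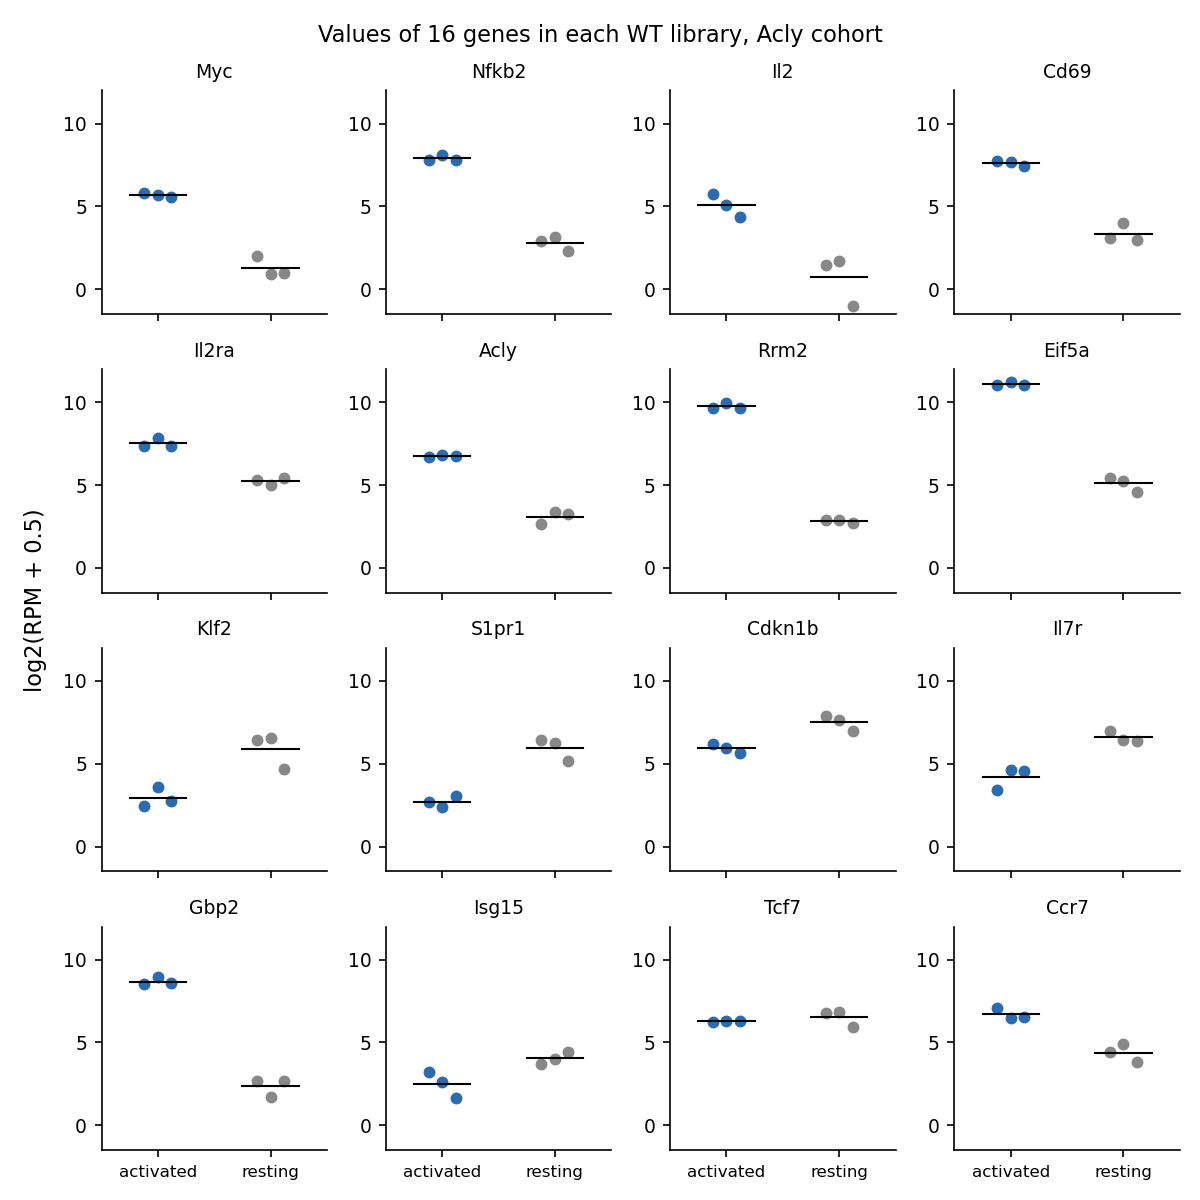
RPM of 16 genes in each of the 3 activated (left) and 3 resting (right) WT libraries, on a log2(RPM + 0.5) axis, with a bar at each group mean. The upper 2 lines show regulators, ligands, receptors and growth genes that stood higher in activated cells, and the lower 2 lines genes of the naive state (Klf2, S1pr1, Cdkn1b, Il7r, Tcf7, Ccr7) and the interferon-induced genes Gbp2 and Isg15.

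Genes of the quiescent, recirculating cell changed unevenly. Of 42 tested naive and quiescence genes 8 were higher and 17 lower on RPM, and after TMM 13 were higher and 12 lower. The median log2 change on RPM was −0.60, beside −0.62 for all genes tested. Among named protein-coding genes alone the median was 0.16, with 34.4% higher and 21.1% lower on RPM. Only Klf2 and S1pr1 were lower under every scaling. Klf2 (ENSMUSG00000055148, GRCm38 chromosome 8, 72319033 to 72321656), the factor that keeps T cells quiescent and drives their egress genes, stood at 4.99, 11.9 and 6.17 RPM in activated libraries 1 to 3, against 87.8, 92.3 and 25.4 RPM in resting libraries 1 to 3. Its groups did not overlap, and resting library 3 held the lowest resting value (log2 change −2.96 ± 0.48, limma adjusted p = 2.64e-04). Without that library the log2 change was −3.56. S1pr1 (ENSMUSG00000045092, GRCm38 chromosome 3, 115710433 to 115715072), the receptor for the egress signal sphingosine 1-phosphate and a target of KLF2, stood at 5.98, 4.74 and 7.93 RPM in activated libraries 1 to 3, against 87.8, 76.6 and 35.8 RPM in resting libraries 1 to 3. It too fell clear of the spread (log2 change −3.25 ± 0.39, limma adjusted p = 1.91e-05), with a log2 change of −3.65 without resting library 3. The interleukin 7 receptor chain Il7r stood at 9.98, 23.8 and 22.95 RPM in activated and 128, 85.2 and 83.9 RPM in resting cells (log2 change −2.43 ± 0.35, limma adjusted p = 1.01e-04). The cell cycle inhibitor p27, Cdkn1b, stood at 72.4, 62.1 and 49.6 RPM in activated and 234, 204 and 128 RPM in resting cells (log2 change −1.58 ± 0.28, limma adjusted p = 5.21e-04). Both were lower on RPM and after TMM, but neither was called with receptor genes held constant, where the log2 change was −0.90 for Il7r and −0.03 for Cdkn1b.

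Other genes of the naive state were higher or were not called. Tcf7, which encodes TCF-1 of naive and memory cells, stood at 74.4, 76.6 and 79.2 RPM in activated and 110.3, 112 and 61.3 RPM in resting cells. The groups overlapped (log2 change −0.25, limma adjusted p = 0.456). Ccr7, the chemokine receptor that brings naive cells to lymph nodes, stood at 138, 88.8 and 90.9 RPM in activated and 20.9, 29.7 and 13.4 RPM in resting cells and was higher in activated cells (log2 change 2.32 ± 0.33, limma adjusted p = 7.94e-05). The quiescence factor Foxp1 stood at 276, 287 and 211 RPM in activated and 67.7, 59.5 and 43.3 RPM in resting cells (log2 change 2.18 ± 0.26, limma adjusted p = 1.77e-05). Slfn2, which T cell quiescence in mice requires, rose with a log2 change 2.68 ± 0.33. Of the 8 GIMAP GTPases tested, which support lymphocyte survival, 4 were higher and 1 lower. Gimap5 stood at 42.1, 46.9 and 44.3 RPM in activated and 4.64, 2.82 and 5.96 RPM in resting cells (log2 change 3.23 ± 0.37, limma adjusted p = 1.39e-05). Gimap8 stood at 14.98, 20.6 and 28.3 RPM in activated and 33.7, 41.01 and 64.3 RPM in resting cells (log2 change −1.10 ± 0.34, limma adjusted p = 0.0163), and Gimap4, not called, at 119, 114 and 87.3 RPM in activated and 128, 125 and 85.4 RPM in resting cells. The family is encoded side by side on chromosome 6, and on RPM its members moved in both directions, while after TMM 5 were higher and 0 lower.

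Genes that define the T cell took a larger share of the activated libraries. Of 42 tested members 28 were higher and 1 lower, with a median log2 change of 1.58; 14 were higher under every scaling. Cd6, a scavenger receptor of the T cell surface, stood at 320.2, 253 and 202 RPM in activated and 22.1, 22.6 and 11.9 RPM in resting cells (log2 change 3.77 ± 0.31, limma adjusted p = 7.60e-07). Zap70, the kinase recruited to the engaged receptor, stood at 155, 173 and 135 RPM in activated and 20.9, 14.1 and 8.94 RPM in resting cells (log2 change 3.43 ± 0.32, limma adjusted p = 2.35e-06). The kinase Lck (1.81 ± 0.31) rose as well, and the 1 lower member was Malt1 (−1.13 ± 0.28), the protease that carries receptor signals to NF-kappa B. Homing genes were divided on RPM, with 4 of 20 higher and 8 lower and a median log2 change of −0.54. Of all genes tested 25.6% were higher and 28.8% lower, with a median of −0.62, so the median of the list lay near that of all genes. After TMM 5 homing genes were higher and 6 lower, and with receptor genes held constant 9 were higher and 0 lower. The chains of the integrin LFA-1, Itgal (2.35 ± 0.28) and Itgb2 (2.63 ± 0.34), and the beta 1 chain Itgb1 (2.27 ± 0.26) rose. The 2 genes that follow were named after their values were seen. Itga4, a partner of Itgb1, stood at 38.05, 30.1 and 61.2 RPM in activated and 139, 139.8 and 146 RPM in resting cells (log2 change −1.77 ± 0.29, limma adjusted p = 2.55e-04). The gut homing receptor Ccr9 stood at 13.98, 7.90 and 16.8 RPM in activated and 48.9, 39.6 and 56.8 RPM in resting cells (log2 change −1.92 ± 0.34, limma adjusted p = 5.39e-04).

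Genes for making ribosomes rose almost without exception. Of 74 tested ribosome biogenesis factors 69 were higher and 0 lower on RPM, 55 of them under every scaling, with a median log2 change of 3.61, or 3.47 with members at 0 in a group set to their bound. Ncl, the nucleolar protein nucleolin, stood at 3142, 3442 and 2952 RPM in activated libraries 1 to 3, against 141, 166 and 132 RPM in resting libraries 1 to 3 (log2 change 4.44 ± 0.19, limma adjusted p = 1.55e-08). Gar1, a protein of the particles that modify ribosomal RNA, stood at 165, 177 and 136 RPM in activated and 3.48, 1.41 and 1.49 RPM in resting cells (log2 change 6.01 ± 0.36, limma adjusted p = 8.05e-08). Nhp2, its partner in the same particle, had 3 resting counts and was 89.5-fold higher by pooled counts, 95% counting interval 30.4 to 435, limma adjusted p = 8.48e-07. The methyltransferase Fbl (4.63 ± 0.29), nucleophosmin Npm1 (4.72 ± 0.27) and Nop56 (4.41 ± 0.27) rose with them. Cytosolic ribosomal proteins were higher in 81 of 82 tested members, 71 of them under every scaling, and 0 were lower; the median log2 change was 2.40. Their summed level was 76061 to 84726 RPM in activated and 9268 to 20020.0 RPM in resting libraries. Rpl3 stood at 1479, 1630.5 and 1284 RPM in activated and 163, 202 and 58.3 RPM in resting cells (log2 change 3.55 ± 0.36, limma adjusted p = 4.75e-06). Rps27l, a paralog of Rps27 that p53 is known to induce, stood at 155, 248 and 174 RPM in activated and 3.48, 4.23 and 1.49 RPM in resting cells (log2 change 5.82 ± 0.37, limma adjusted p = 1.05e-07). Rps27 itself was the 1 member not called, at 692, 596 and 589 RPM in activated and 566, 474 and 286 RPM in resting cells. Reads of such paralogs may be divided between them by the counting, which is not given in the sources used here.

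Translation factors were higher in 42 of 46 tested members and lower in 1 (median log2 change 3.20). Eif5a, the factor that carries the modified lysine hypusine, stood at 2088, 2362 and 2155 RPM in activated and 43.1, 38.2 and 23.9 RPM in resting cells (log2 change 5.99 ± 0.25, limma adjusted p = 1.10e-08). The cap-binding protein Eif4e stood at 209.6, 220.3 and 203 RPM in activated and 58.3, 36.8 and 64.3 RPM in resting cells (log2 change 2.02 ± 0.27, limma adjusted p = 4.29e-05). The 1 lower member was Eif4ebp1, which holds EIF4E inactive until it is phosphorylated, at 26.999, 22.96 and 27.4 RPM in activated and 59.5, 46.7 and 52.3 RPM in resting cells (log2 change −1.02 ± 0.27, limma adjusted p = 0.00759). With receptor genes held constant it was not called (log2 change 0.52). Aminoacyl-tRNA synthetases were higher in 29 of 39 tested members and lower in 1. Gars, the synthetase for glycine, rose (log2 change 5.87 ± 0.31), and Yars, that for tyrosine, stood at 72.4, 54.9 and 69.3 RPM in activated and 86.6, 65.2 and 125 RPM in resting cells, without a call. Among the long noncoding RNAs, a pair of hosts of small nucleolar RNAs rose. Gas5 stood at 246, 209 and 166 RPM in activated and 53.6, 59.5 and 29.8 RPM in resting cells (log2 change 2.15 ± 0.30, limma adjusted p = 6.78e-05), and Snhg1 at 397, 443 and 379 RPM in activated and 33.7, 33.9 and 38.8 RPM in resting cells (log2 change 3.50 ± 0.23, limma adjusted p = 1.38e-07). The list of 25 tested long noncoding and host RNAs, with 14 higher and 6 lower, summed to 2739 to 2909 RPM in activated and 4693 to 4915 RPM in resting libraries. The lower ones included Neat1, the scaffold of paraspeckles, at 32.02, 12.6 and 26.5 RPM in activated and 80.7, 56.6 and 97.5 RPM in resting cells (log2 change −1.77 ± 0.36, limma adjusted p = 0.00135).

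Genes for folding and turning over proteins rose as well. All 8 subunits of the CCT chaperonin, which folds actin and tubulin, were higher under every scaling, with a median log2 change of 4.06. Cct5 stood at 213, 231 and 169 RPM in activated and 11.6, 8.46 and 0 RPM in resting cells (log2 change 5.75 ± 1.05, limma adjusted p = 0.00251). Cytosolic heat shock proteins were higher in 19 of 21 tested members and lower in 0 (median log2 change 3.65). Hsp90ab1, the constitutive form of HSP90, stood at 1929.9, 1824 and 1903 RPM in activated and 66.6, 63.8 and 29.8 RPM in resting cells (log2 change 5.22 ± 0.28, limma adjusted p = 4.09e-08). In the endoplasmic reticulum 26 of 36 members were higher and 1, the stress sensor Ern1 (−1.54 ± 0.52), lower; the chaperone BiP, Hspa5, stood at 279, 260.3 and 267 RPM in activated and 9.28, 9.87 and 5.96 RPM in resting cells (log2 change 4.95 ± 0.28, limma adjusted p = 5.20e-08). Of 44 tested proteasome genes 40 were higher, each of them under every scaling, and 0 lower, with a median log2 change of 3.77. Psmd14, the deubiquitinase of the regulatory particle, stood at 169.9, 193 and 132 RPM in activated and 3.48, 14.1 and 7.45 RPM in resting cells (log2 change 4.40 ± 0.41, limma adjusted p = 2.20e-06). Lysosome and autophagy genes changed less as a list, with 15 of 43 higher (34.9%), 5 lower and a median log2 change of 0.43. That share is near the 34.4% higher among named protein-coding genes, which had a median of 0.16 on RPM. Lamp1, a lysosomal membrane protein, was higher (log2 change 2.95 ± 0.34), and Map1lc3b, a marker of autophagosomes, stood at 76.5, 69.4 and 56.8 RPM in activated and 52.5, 79.5 and 44.8 RPM in resting cells (log2 change 0.23 ± 0.29, limma adjusted p = 0.503). Splicing and nuclear transport genes were higher in 53 of 55 tested members and lower in 0 (median log2 change 3.40), among them the transport GTPase Ran at 826, 767 and 722 RPM in activated and 26.7, 14.1 and 16.4 RPM in resting cells (log2 change 5.35 ± 0.27, limma adjusted p = 2.70e-08).

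**Figure D4:**
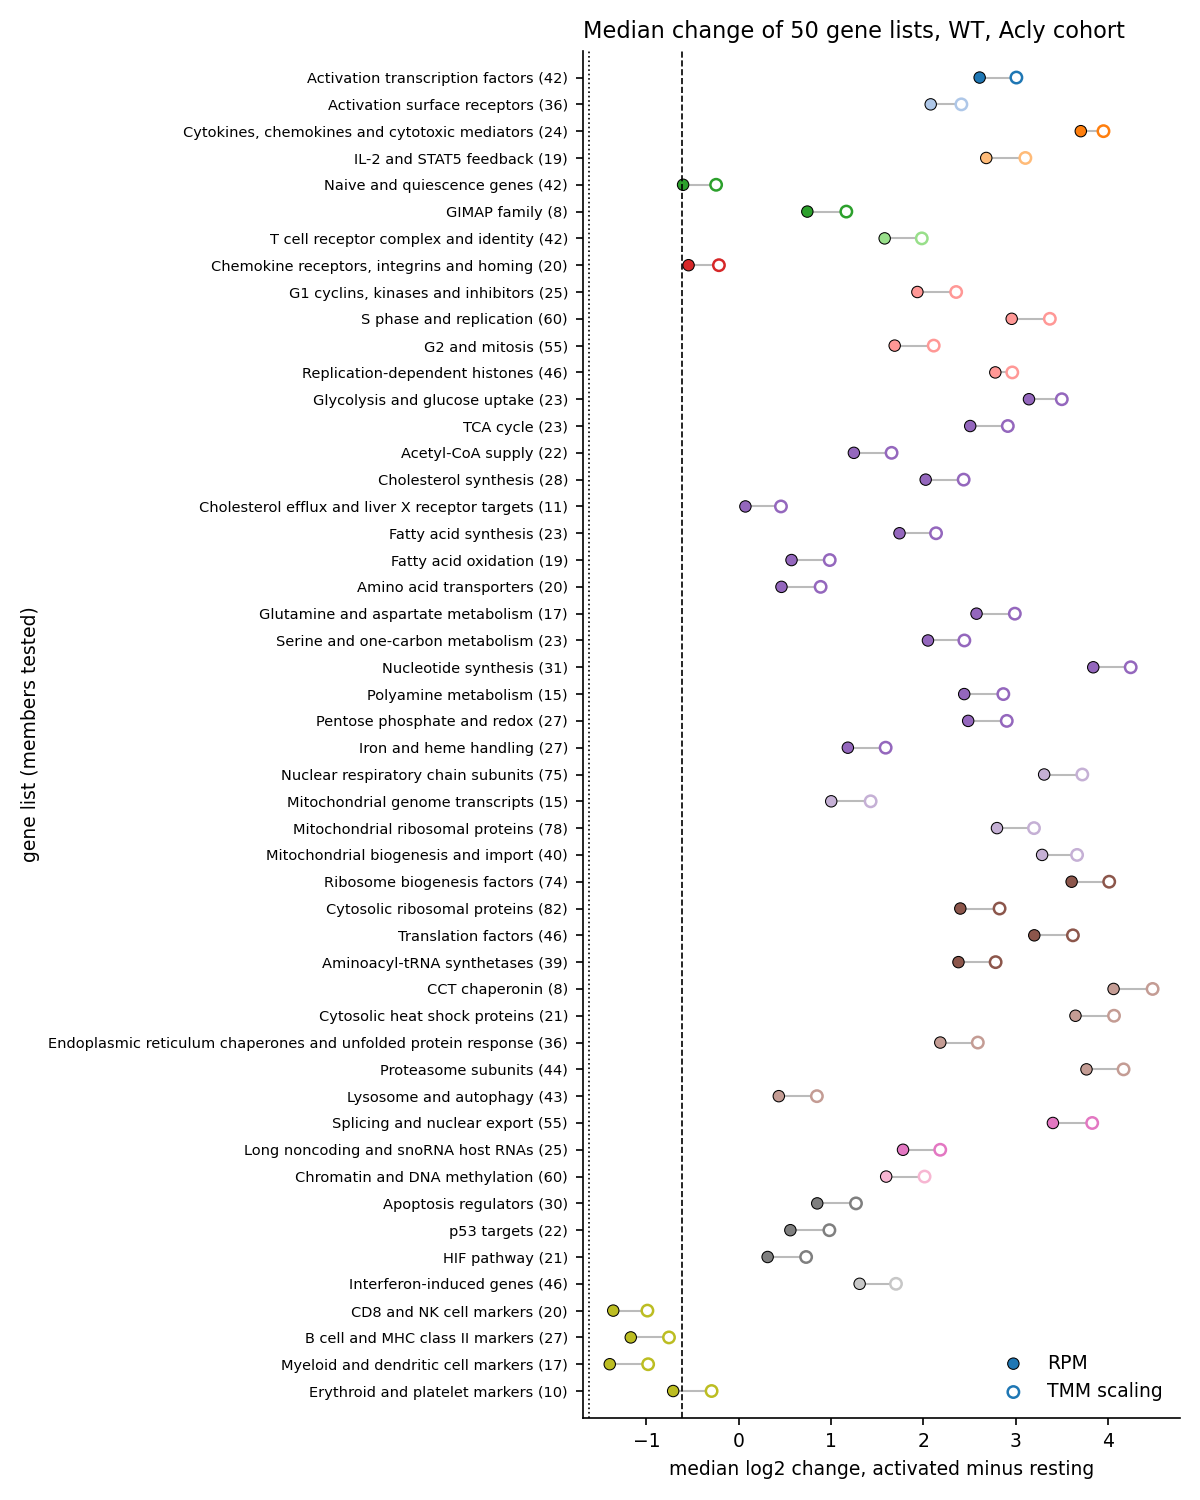
Median log2 change of activated against resting WT cells for the tested members of 50 gene lists, on RPM (filled circles) and after TMM scaling (open circles), grouped by role. The dashed line marks the median of all genes tested on RPM (−0.62) and the dotted line that of receptor genes (−1.63).

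Mitochondrial genes of both genomes rose on RPM, and their values are set side by side here without a test of the difference. Of 75 tested nuclear genes of respiratory chain subunits 73 were higher on RPM, 67 under every scaling, and 0 lower, with a median log2 change of 3.31. Cycs, cytochrome c, stood at 962, 1412 and 893 RPM in activated libraries 1 to 3, against 33.7, 31.1 and 22.4 RPM in resting libraries 1 to 3 (log2 change 5.19 ± 0.26, limma adjusted p = 2.70e-08). Ndufa12, a complex I subunit, stood at 512, 578 and 435 RPM in activated and 17.4, 25.4 and 10.4 RPM in resting cells (log2 change 4.88 ± 0.31, limma adjusted p = 1.05e-07). Of the 15 tested transcripts of the mitochondrial genome, ribosomal RNAs included, 9 were higher and 0 lower on RPM, with a median log2 change of 1.00. Of these 2 were higher under every scaling. With named protein-coding genes held constant 2 of the 15 were higher and 2 lower, and the median was −0.10. mt-Nd1, of complex I, stood at 3904, 4708 and 3398 RPM in activated and 1051, 1226 and 645 RPM in resting cells (log2 change 2.08 ± 0.24, limma adjusted p = 1.30e-05). mt-Co1, of complex IV, stood at 1336, 1707 and 1205 RPM in activated and 999, 903 and 379 RPM in resting cells (log2 change 1.00 ± 0.31, limma adjusted p = 0.0158). With protein-coding genes held constant the change of mt-Co1 was 0.51, and with named protein-coding genes −0.10. Mitochondrial ribosomal proteins, which serve only that genome, were higher in 68 of 78 tested members and lower in 1, Mrpl48 (−1.71 ± 0.23) (median log2 change 2.80). The import and biogenesis list had 34 of 40 members higher and 3 lower. The chaperone HSP60, Hspd1, stood at 585, 501 and 430.4 RPM in activated and 12.8, 8.46 and 8.94 RPM in resting cells (log2 change 5.59 ± 0.27, limma adjusted p = 2.41e-08). Tfam, which packages and transcribes the mitochondrial genome, stood at 77.5, 84.7 and 72.000 RPM in activated and 13.9, 16.9 and 2.98 RPM in resting cells (log2 change 3.04 ± 0.49, limma adjusted p = 2.35e-04). The 3 lower members were Ppargc1a (−1.42 ± 0.52), the coactivator of mitochondrial biogenesis in other tissues, Tfb1m (−1.23 ± 0.43) and Mfn1 (−0.94 ± 0.32).

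**Figure D5:**
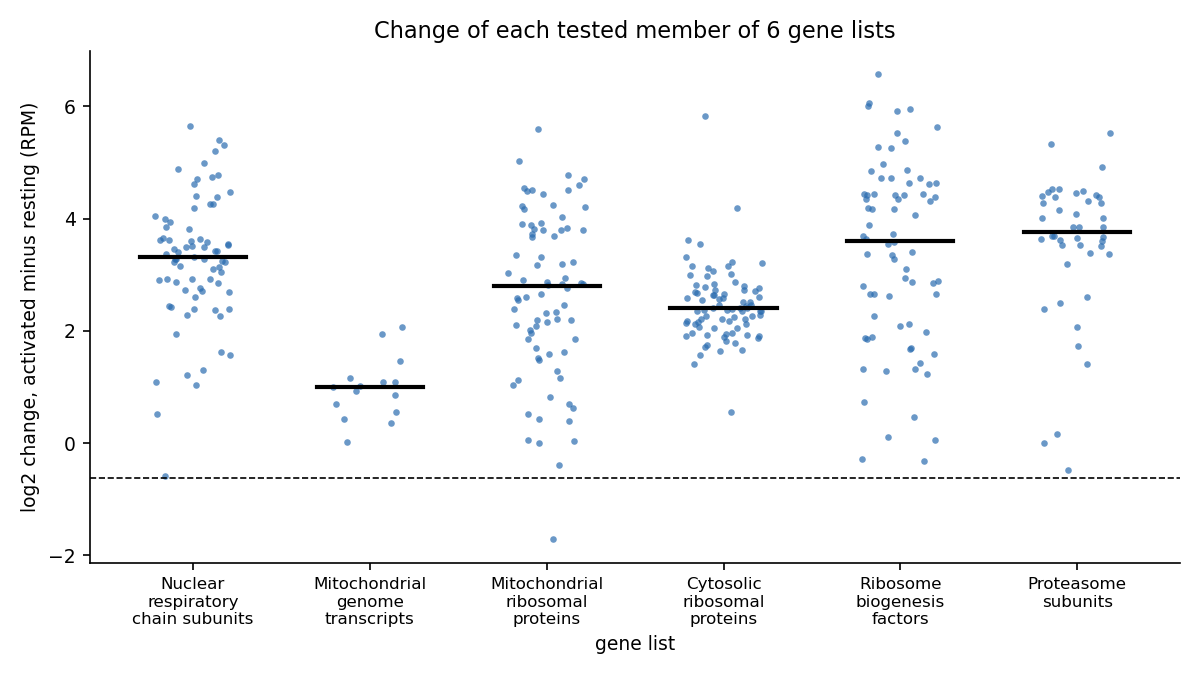
Log2 change of activated against resting WT cells for every tested member of 6 gene lists on RPM (points), with the median of each list (bar); the dashed line marks the median of all genes tested. The 15 transcripts of the mitochondrial genome lay between 0.03 (mt-Nd5) and 2.08 (mt-Nd1), with a median of 1.00, against a median of 3.31 for the nuclear subunits.

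Genes of glucose metabolism rose along the pathway. Of 23 tested glycolytic enzymes and transporters 19 were higher, 16 under every scaling, and 0 lower, with a median log2 change of 3.14. Pgam1, phosphoglycerate mutase, stood at 973, 1206 and 1097 RPM in activated and 25.6, 22.6 and 19.4 RPM in resting cells (log2 change 5.57 ± 0.23, limma adjusted p = 1.10e-08). Pkm, pyruvate kinase, stood at 1379, 1666 and 1329 RPM in activated and 77.1, 50.9 and 23.9 RPM in resting cells (log2 change 4.98 ± 0.34, limma adjusted p = 1.81e-07). Ldha, which makes lactate, rose with a log2 change 3.66 ± 0.21. Hk2, the inducible hexokinase, stood at 28.003, 28.5 and 31.8 RPM in activated and 15.1, 9.87 and 8.94 RPM in resting cells, and its change was small beside those (log2 change 1.38 ± 0.34, limma adjusted p = 0.00446). Slc2a1, the glucose transporter GLUT1, held 2 counts in resting cells and was 10.3-fold higher by pooled counts, 95% counting interval 2.65 to 88.4, limma adjusted p = 0.00220. Pentose phosphate and redox genes were higher in 21 of 27 members and lower in 0. G6pdx, the first enzyme of the pentose phosphate pathway, stood at 59.2, 70.2 and 39.8 RPM in activated and 5.80, 1.41 and 0 RPM in resting cells (log2 change 4.93 ± 0.70, limma adjusted p = 8.51e-05). The TCA cycle list, which also holds cytosolic enzymes such as Idh1, had 19 of 23 members higher and a median log2 change of 2.51. Its 1 lower member was Idh1, with 1 count in activated and 11 in resting cells (18.7-fold lower by pooled counts, 95% counting interval 2.72 to 804). Mdh2, mitochondrial malate dehydrogenase, stood at 164, 111 and 177 RPM in activated and 13.9, 8.46 and 8.94 RPM in resting cells (log2 change 3.79 ± 0.31, limma adjusted p = 7.61e-07). Genes commonly used as hypoxia targets were mixed, with 8 of 21 higher (38.1%) and 4 lower, beside 34.4% higher among named protein-coding genes. The lipid droplet protein Hilpda (4.52 ± 0.66) rose and Vegfa (−1.24 ± 0.38) was lower on RPM.

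The 2 enzymes that the series deletes in other groups rose in WT cells, and so did lipid pathways that use their product. Acly (ENSMUSG00000020917, GRCm38 chromosome 11, 100476353 to 100528000), which splits cytosolic citrate into acetyl-CoA and oxaloacetate, stood at 104, 111 and 109 RPM in activated and 5.80, 9.87 and 8.94 RPM in resting cells and was higher under every scaling (log2 change 3.67 ± 0.30, limma adjusted p = 8.10e-07). Slc25a1, which exports citrate from mitochondria, stood at 73.4, 95.3 and 69.3 RPM in activated and 8.12, 8.46 and 1.49 RPM in resting cells (log2 change 3.88 ± 0.50, limma adjusted p = 3.43e-05). Pdha1 was higher too (log2 change 2.81 ± 0.32, limma adjusted p = 1.19e-05), whereas Acss2, which makes acetyl-CoA from acetate, stood at 11.98, 11.1 and 10.6 RPM in activated and 19.8, 12.7 and 17.9 RPM in resting cells and was not called. Over the list of acetyl-CoA supply 12 of 22 members were higher and 3 lower: Acss1 (−1.92 ± 0.50), Nudt7 (−1.01 ± 0.39) and Pdk1 (−0.85 ± 0.29), a kinase that inhibits pyruvate dehydrogenase. Cholesterol synthesis genes were higher in 20 of 28 tested members and lower in 0, with a median log2 change of 2.02, or 1.90 with members at 0 in a group set to their bound; 14 were higher under every scaling. Cyp51, lanosterol demethylase, stood at 89.7, 99.3 and 80.1 RPM in activated and 4.64, 2.82 and 7.45 RPM in resting cells (log2 change 4.13 ± 0.36, limma adjusted p = 1.40e-06). In the efflux list Abcg1, a cholesterol exporter, was lower on RPM, at 24.99, 11.9 and 11.5 RPM in activated and 58.3, 24.003 and 37.3 RPM in resting cells (log2 change −1.29 ± 0.40, limma adjusted p = 0.0165). Fatty acid synthesis had 15 of 23 members higher and 3 lower. Fasn, fatty acid synthase, stood at 32.02, 61.3 and 30.05 RPM in activated and 2.32, 2.82 and 0 RPM in resting cells (log2 change 4.56 ± 0.66, limma adjusted p = 9.27e-05). Acaca, acetyl-CoA carboxylase, which supplies its substrate, stood at 25.996, 29.3 and 26.5 RPM in activated and 38.4, 29.7 and 46.3 RPM in resting cells and was not called. Among 19 tested genes of fatty acid oxidation 8 were higher (42.1%) and 3 lower on RPM, beside 34.4% higher and 21.1% lower among named protein-coding genes. With named protein-coding genes held constant 3 were higher and 7 lower. Cpt1a, the entry step to mitochondria, was lower on RPM (log2 change −1.11 ± 0.37). With receptor genes held constant, Abcg1 and Cpt1a had changes of 0.24 and 0.41.

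Nucleotide synthesis genes rose, while amino acid transporters were divided. Of 31 tested nucleotide synthesis genes 25 were higher and 1 lower, with a median log2 change of 3.84, 20 of them under every scaling. Umps, which completes UMP, stood at 192, 231 and 201 RPM in activated and 3.48, 2.82 and 1.49 RPM in resting cells (log2 change 6.13 ± 0.33, limma adjusted p = 4.09e-08). Cad, which starts pyrimidine synthesis, had 3 resting counts and was 54.5-fold higher by pooled counts, 95% counting interval 18.5 to 266, limma adjusted p = 7.64e-06. The 1 lower gene was Tyms, thymidylate synthase, at 63.3, 57.3 and 63.03 RPM in activated and 115, 101 and 138 RPM in resting cells (log2 change −0.93 ± 0.25, limma adjusted p = 0.00696), which is also the 1 lower member of the S phase list. A pseudogene of it is in the table and may share reads, so its value is uncertain. Glutamine and aspartate genes were higher in 12 of 17 members and lower in 1, with a median log2 change of 2.58, 10 of them under every scaling. Serine and one-carbon genes were higher in 12 of 23 members and lower in 3, with a median log2 change of 2.05. Psat1, which makes serine, stood at 582, 646 and 533 RPM in activated and 4.64, 4.23 and 7.45 RPM in resting cells (log2 change 6.66 ± 0.28, limma adjusted p = 1.10e-08). Shmt2, which passes the carbon of serine to folate in mitochondria, stood at 619.8, 796 and 671 RPM in activated and 15.1, 14.1 and 7.45 RPM in resting cells (log2 change 5.83 ± 0.29, limma adjusted p = 2.70e-08). Polyamine genes were higher in 13 of 15 members and lower in 0, with ornithine decarboxylase, Odc1, at 567, 629 and 536 RPM in activated and 10.4, 5.64 and 5.96 RPM in resting cells (log2 change 6.25 ± 0.28, limma adjusted p = 1.81e-08). Amino acid transporters divided into 10 higher, 3 lower and 7 not called of 20 tested. Slc7a5, the carrier of large neutral amino acids, stood at 51.1, 42.1 and 41.6 RPM in activated and 1.16, 2.82 and 1.49 RPM in resting cells (log2 change 4.35 ± 0.42, limma adjusted p = 3.32e-06). Its partner chain Slc3a2 (2.29 ± 0.26) and the glutamine carrier Slc1a5 (3.28 ± 0.30) also rose, and the 3 lower ones were Slc7a8 (−1.90 ± 0.69), the cystine carrier Slc7a11 (−1.47 ± 0.31) and Slc43a2 (−1.13 ± 0.38). In iron handling 15 of 27 members were higher and 3 lower. The transferrin receptor Tfrc stood at 458, 429.7 and 309 RPM in activated and 6.96, 7.05 and 11.9 RPM in resting cells, and the iron exporter Slc40a1 at 1.99, 1.58 and 4.40 RPM in activated and 11.6, 11.3 and 11.9 RPM in resting cells (log2 change −2.04 ± 0.52, limma adjusted p = 0.00555).

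Cell cycle genes of each phase rose. Of 25 tested G1 genes 17 were higher and 2 lower. Ccnd2, cyclin D2, stood at 1404, 1239.6 and 1064 RPM in activated and 39.6, 28.2 and 35.8 RPM in resting cells (log2 change 5.14 ± 0.23, limma adjusted p = 1.81e-08). Its kinase partner Cdk4 (3.86 ± 0.27) rose as well. S phase genes were higher in 48 of 60 members and lower in 1 (median log2 change 2.96), 39 of them under every scaling. Rrm2, the ribonucleotide reductase subunit made in S phase, stood at 799, 1013 and 822 RPM in activated and 6.96, 7.05 and 5.96 RPM in resting cells. It had the smallest adjusted p of all genes tested (log2 change 6.93 ± 0.25, limma adjusted p = 4.88e-09). The sliding clamp Pcna stood at 704, 811 and 606 RPM in activated and 23.2, 28.2 and 13.4 RPM in resting cells (log2 change 5.05 ± 0.29, limma adjusted p = 5.46e-08). In G2 and mitosis 34 of 55 members were higher and 3 lower (median log2 change of 1.69), 22 of them under every scaling. Cdk1, the mitotic kinase, stood at 214, 242 and 194 RPM in activated and 3.48, 2.82 and 7.45 RPM in resting cells (log2 change 5.52 ± 0.35, limma adjusted p = 9.92e-08). Mki67, the proliferation marker Ki-67, stood at 111, 150.2 and 140.0 RPM in activated and 5.80, 7.05 and 5.96 RPM in resting cells (log2 change 4.30 ± 0.29, limma adjusted p = 1.63e-07). Plk1, a mitotic kinase with 1 resting count, was 30.02-fold higher by pooled counts, 95% counting interval 5.15 to 1209, limma adjusted p = 2.65e-04. Topoisomerase II alpha, Top2a (3.43 ± 0.32), and cyclin B1, Ccnb1 (1.02 ± 0.33), rose too, though the change of Ccnb1 was −0.05 with named protein-coding genes held constant. The 3 lower members were Cdc25b (−1.42 ± 0.42), Kif23 (−1.27 ± 0.32) and Anln (−0.87 ± 0.30). Replication-dependent histones were higher in 32 of 46 tested genes and lower in 3 (median log2 change of 2.78, or 2.22 with members at 0 in a group set to their bound). Hist1h2ao stood at 350.5, 275 and 127 RPM in activated and 2.32, 2.82 and 1.49 RPM in resting cells. It and Hist1h2ap are near-identical copies that may share reads, so both are reported as uncertain.

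The promoters of cell cycle genes are shown because these genes moved together. RefSeq promoters (GRCm38.p6, the 250 bases before the start) were searched on both strands for the E2F letters TTTGGCGC, TTTCCCGC, TTTGCCGC and TTTCGCGC, and for the CHR letters TTTGAA together with CCAAT, a pair that in mammals marks genes of late phases. E2F letters stood in 9 of the 47 S phase promoters matched by symbol (19.1%) and in 1.91% of all 27025 promoters. In the other lists searched they stood in 3 of 45 promoters of G2 and mitosis (6.67%), 4 of 63 of ribosome biogenesis factors (6.35%) and 3 of 38 of interferon-induced genes (7.89%). Of the 9 genes that held them 7 were higher in activated cells, with a median log2 change of 3.40, and of the 38 without, 31 were higher, with a median of 2.75. CHR and CCAAT stood together in 14 of 45 G2 and mitosis promoters (31.1%) and in 5.73% of all. Of the 14 genes that held both, 10 were higher in activated cells, with a median log2 change of 3.36, and of the 31 without, 16 were higher, with a median of 1.28. For each motif the 2 called members with the smallest p are printed 5′ to 3′, with the letters of that motif alone in capitals. Letters of the other motif stay in lower case, among them TTTCGCGC in Cdk1 and CCAAT, on either strand, in Mcm7 and Mcm5. In Mcm5 matches on the 2 strands overlap.
Mcm7: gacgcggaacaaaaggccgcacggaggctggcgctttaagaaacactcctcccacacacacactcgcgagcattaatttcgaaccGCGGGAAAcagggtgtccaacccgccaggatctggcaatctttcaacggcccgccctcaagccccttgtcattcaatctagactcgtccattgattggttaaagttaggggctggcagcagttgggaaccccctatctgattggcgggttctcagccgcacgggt
Mcm5: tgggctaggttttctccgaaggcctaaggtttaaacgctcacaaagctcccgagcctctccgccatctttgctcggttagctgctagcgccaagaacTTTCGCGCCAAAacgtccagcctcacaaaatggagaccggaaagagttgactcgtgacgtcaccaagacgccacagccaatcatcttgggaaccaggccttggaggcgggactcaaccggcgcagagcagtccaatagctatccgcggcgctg
Cdk1: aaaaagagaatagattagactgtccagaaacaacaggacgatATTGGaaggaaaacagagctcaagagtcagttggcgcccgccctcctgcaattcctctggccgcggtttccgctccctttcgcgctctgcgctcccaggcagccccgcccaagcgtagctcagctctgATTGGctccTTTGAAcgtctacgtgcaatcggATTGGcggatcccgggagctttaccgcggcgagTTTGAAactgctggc
Mki67: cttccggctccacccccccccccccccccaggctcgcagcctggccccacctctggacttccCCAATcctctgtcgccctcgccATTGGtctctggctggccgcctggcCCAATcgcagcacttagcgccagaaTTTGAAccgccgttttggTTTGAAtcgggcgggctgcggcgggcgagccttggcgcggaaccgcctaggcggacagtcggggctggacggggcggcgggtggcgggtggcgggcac
These are Mcm7 at chr5:138171884-138172133, minus strand, Mcm5 at chr8:75109259-75109508, plus strand, Cdk1 at chr10:69352913-69353162, minus strand and Mki67 at chr7:135716380-135716629, minus strand. Both Mcm genes encode subunits of the replicative helicase, and Mcm5 stood at 303, 253 and 202 RPM in activated and 18.6, 14.1 and 16.4 RPM in resting cells (log2 change 3.90 ± 0.27, limma adjusted p = 1.85e-07). The E-box letters CACGTG, which MYC can bind, were searched as well and stood in 5 of 63 promoters of ribosome biogenesis factors (7.94%) and in 6.05% of all. A match is a description of letters, not of a bound factor. For Mcm5 and Mki67 the bases soon after the RefSeq start were not found in a GENCODE M21 transcript of the gene. Their starts may thus differ from the ones used here.

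Genes induced by interferon moved in both directions. Of 46 tested members 22 were higher and 8 lower, with a median log2 change of 1.31; 17 were higher under every scaling. The higher ones included guanylate-binding proteins and immunity-related GTPases, families that interferon gamma is known to induce. Gbp2 (ENSMUSG00000028270, GRCm38 chromosome 3, 142620602 to 142638008) stood at 371, 486 and 380.2 RPM in activated libraries 1 to 3, against 5.80, 2.82 and 5.96 RPM in resting libraries 1 to 3 (log2 change 6.32 ± 0.31, limma adjusted p = 2.70e-08). Ifi47 stood at 859, 1148 and 813 RPM in activated and 43.1, 48.1 and 25.4 RPM in resting cells (log2 change 4.61 ± 0.27, limma adjusted p = 6.98e-08). The 8 lower members were Oas3 (−2.00 ± 0.56), Ifi44 (−1.71 ± 0.56), Ifih1 (−1.61 ± 0.49), Isg15 (−1.55 ± 0.48), Oasl2 (−1.55 ± 0.42), Ifi204 (−1.43 ± 0.36), Ifi203 (−1.43 ± 0.27) and Rsad2 (−1.39 ± 0.44), mostly antiviral genes that are better known from the response to type I interferon. Isg15, a ubiquitin-like modifier, stood at 8.98, 5.53 and 2.64 RPM in activated and 12.8, 15.5 and 20.9 RPM in resting cells. Ifit1, of the same antiviral group, stood at 0.997, 4.74 and 10.6 RPM in activated and 2.32, 5.64 and 4.47 RPM in resting cells, without a call. With receptor genes held constant none of the 8 was called: Oas3 had a log2 change of −0.56, the other four negative ones lay between −0.27 (Ifi44) and −0.04 (Oasl2), and the changes of Ifi204, Rsad2 and Ifi203 turned positive, up to 0.11 (Ifi203). Their changes on RPM stand beside a median of −1.63 for receptor genes.

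The promoters of this list were searched for the letters TTCNNNGAA, because its members moved in both directions. These letters are the GAS element of promoters that answer interferon gamma. The element stood in 11 of 38 matched promoters (28.9%) and in 7.18% of all. Among the other lists it stood in 8 of 63 promoters of ribosome biogenesis factors (12.7%). For S phase it was 3 of 47 (6.38%) and for G2 and mitosis 2 of 45 (4.44%). Among the 10 tested genes that held the element 9 were higher, with a median log2 change of 3.50, and among the 24 without it 8 were higher, with a median of 0.17. The 10 were Bst2, Gbp5, Gbp7, Ifit2, Igtp, Irf1, Irgm2, Psmb8, Tgtp1 and Tgtp2, with the near-identical Tgtp1 and Tgtp2 counted apart. Gbp2 and Ifi47 were not among them. The 2 called holders with the smallest p are shown with the element in capitals, both from genes of the immunity-related GTPase family.
Igtp: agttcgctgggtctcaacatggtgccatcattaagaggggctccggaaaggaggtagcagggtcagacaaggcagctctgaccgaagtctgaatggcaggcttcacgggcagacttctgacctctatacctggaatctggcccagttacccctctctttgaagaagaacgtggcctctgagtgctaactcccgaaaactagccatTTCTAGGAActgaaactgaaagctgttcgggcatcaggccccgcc
Tgtp2: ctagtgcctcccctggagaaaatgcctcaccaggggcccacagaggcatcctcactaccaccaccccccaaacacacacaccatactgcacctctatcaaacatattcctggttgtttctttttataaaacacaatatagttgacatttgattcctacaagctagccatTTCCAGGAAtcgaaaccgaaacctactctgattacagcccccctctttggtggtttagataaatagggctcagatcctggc
These lie at chr11:58199306-58199555, plus strand (Igtp) and chr11:49064213-49064462, minus strand (Tgtp2), and Tgtp2 stood at 87.6, 116 and 90.9 RPM in activated and 4.64, 5.64 and 5.96 RPM in resting cells (log2 change 4.06 ± 0.30, limma adjusted p = 3.82e-07); its neighbour Tgtp1 is a near-identical copy, so the 2 may share reads.

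Apoptosis regulators of both kinds rose, 16 of 30 tested members higher and 2 lower. The protective Bcl2l1 (BCL-XL) stood at 255, 220.3 and 226 RPM in activated and 27.9, 26.8 and 25.4 RPM in resting cells (log2 change 3.10 ± 0.24, limma adjusted p = 4.96e-07). Mcl1, also protective, rose (log2 change 2.58 ± 0.32), and so did the death effector Bax (3.92 ± 0.35). Bcl2 itself stood at 163, 245 and 163 RPM in activated and 132, 93.8 and 117 RPM in resting cells (log2 change 0.72 ± 0.26, limma adjusted p = 0.0301), a small change beside those, and its sign turned with named protein-coding genes held constant (−0.38). The 2 lower members, Bmf (−2.16 ± 0.76) and Hrk (−1.70 ± 0.46), encode BH3-only proteins that promote death. Targets of p53 were higher in 8 of 22 members (36.4%) and lower in 2, near the 34.4% higher among named protein-coding genes on RPM. Cdkn1a (p21) stood at 112, 105 and 59.5 RPM in activated and 19.8, 25.4 and 32.8 RPM in resting cells (log2 change 1.78 ± 0.32, limma adjusted p = 5.19e-04). Of 60 tested chromatin genes 37 were higher and 4 lower. Dnmt1, the maintenance DNA methyltransferase, stood at 134, 121 and 149 RPM in activated and 11.6, 16.9 and 25.4 RPM in resting cells (log2 change 2.94 ± 0.31, limma adjusted p = 6.68e-06), and Ezh2, the histone methyltransferase of Polycomb, rose with a log2 change 2.48 ± 0.29.

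Lists of markers of other cells that a CD4 preparation could hold had more members lower than higher on RPM, where 28.8% of all genes tested were lower. Of 20 CD8 and NK markers 3 were higher and 9 lower; their sum was 119 to 129.8 RPM in activated and 172 to 201 RPM in resting libraries. The 3 higher ones, Xcl1, Cd160 and Nkg7, are also made by activated CD4 cells. Klrd1, the NK receptor CD94, stood at 0.997, 0 and 0.880 RPM in activated and 23.2, 15.5 and 7.45 RPM in resting cells and was 30.6-fold lower by pooled counts, 95% counting interval 7.87 to 262, limma adjusted p = 4.83e-04. B cell and MHC class II markers were higher in 6 of 27 and lower in 10, and summed to 295 to 362 RPM in activated and 275 to 349 RPM in resting libraries. Ighm, the immunoglobulin M heavy chain, stood at 101, 102 and 73.8 RPM in activated and 32.6, 29.7 and 7.45 RPM in resting cells (log2 change 2.20 ± 0.45, limma adjusted p = 0.00142), against the direction of most of the list. Myeloid markers were higher in 2 of 17 and lower in 8, and summed to 99.6 to 116 RPM in activated and 206 to 248 RPM in resting libraries. Erythroid and platelet markers were higher in 0 of 10 and lower in 4, and summed to 90.2 to 178 RPM in activated and 242 to 354 RPM in resting libraries. The median log2 changes of these 4 lists on RPM were −1.36, −1.17, −1.40 and −0.71 in the order given, beside −0.62 for all genes and −1.63 for receptor genes. After TMM 7 B cell and class II markers were higher and 7 lower. With receptor genes held constant 1 marker of the 4 lists, Klrd1, was lower and the medians were 0.03, 0.23, 0.12 and 0.71. The part of such cells in the changes above was not tested.

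The largest changes among named protein-coding genes were also taken by size, 12 in each direction. Among the rises, Ybx3, a cold shock domain protein that binds RNA, stood at 466, 550.0 and 451 RPM in activated and 3.48, 2.82 and 0 RPM in resting cells. Srm, spermidine synthase, stood at 714, 596 and 573 RPM in activated and 10.4, 0 and 0 RPM in resting cells. Pa2g4, a growth-regulated protein of the nucleolus, stood at 683, 802 and 534 RPM in activated and 6.96, 14.1 and 2.98 RPM in resting cells. No group overlapped in these 3 genes. Lad1, the filament-anchoring protein ladinin, had 1 resting count and was 225-fold higher by pooled counts, 95% counting interval 40.2 to 8928, limma adjusted p = 3.25e-07. Prelid3b, of a family of mitochondrial lipid carriers, was 75.7-fold higher by pooled counts, 95% counting interval 25.7 to 369, limma adjusted p = 3.26e-06. The falls were of genes with fewer counts. Cd7, a surface glycoprotein of T and NK cells, stood at 0, 0 and 0 RPM in activated and 22.1, 11.3 and 4.47 RPM in resting cells and was at least 4.73-fold lower, limma adjusted p = 2.87e-04. H2-Ob, a beta chain that tunes class II loading in B cells, stood at 3.99, 2.37 and 0 RPM in activated and 15.1, 22.6 and 11.9 RPM in resting cells (log2 change −3.15 ± 0.73, limma adjusted p = 0.00327). Rapgef4, an exchange factor for RAP1 that senses cyclic AMP, was 18.7-fold lower by pooled counts, 95% counting interval 4.59 to 164, limma adjusted p = 0.00145. Ghr, the growth hormone receptor, stood at 0, 1.58 and 1.76 RPM in activated and 15.1, 9.87 and 11.9 RPM in resting cells (log2 change −3.25 ± 0.68, limma adjusted p = 0.00163). Of the 115 genes that were lower under every scaling 44 were named protein-coding genes outside the receptor families, Cd7, Klrd1, Rapgef4, Ghr, Klf2 and S1pr1 among them.

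The response was set against that of the Acly knockout cells of the same cohort and of the WT cells of the other cohort. The activation effect in WT minus that in knockout cells was called for 0 of 31311 genes (0.0%) by limma, with 1313 genes at an unadjusted p under 0.05 and a smallest adjusted p of 0.742; after TMM the count was also 0, with 1371 genes at an unadjusted p under 0.05. Leaving out WT resting library 1 gave 1 call, Srm, and leaving out WT resting library 3 gave 1, Gcsh, a subunit of the glycine cleavage system. A missed threshold does not show that the responses were alike.

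Against the WT cells of the Pdha1 cohort, which share no library with these, 1 of 31081 genes (0.00322%) differed in its activation effect: Mki67 (difference 4.48 on the log2 scale, limma adjusted p = 0.026). In that cohort Mki67 stood at 15.96, 8.70 and 5.35 RPM in activated and 7.46, 11.5 and 12.8 RPM in resting cells, with overlapping groups. Topoisomerase II alpha, Top2a, stood there at 41.1, 32.96 and 24.7 RPM in activated and 33.4, 35.7 and 33.2 RPM in resting cells. Rrm2 stood there at 66.3, 40.8 and 2.14 RPM in activated and 12.9, 7.32 and 9.77 RPM in resting cells. WT activated libraries 1 to 3 of the Pdha1 cohort held 26547, 72700 and 106047 RPM of receptor genes, and library 1 had 388902 recovered counts. Library 3 lay within the range of the resting libraries above, so the difference was also taken without it. Libraries 1 and 2, unlike each other in background, were kept in that fit. Then 7 genes were called, all with a larger effect in the Acly cohort, among them Mki67, Top2a, Rrm2, Fam111a, Hist1h2al and Hist1h2ap, which are genes of replication, mitosis or histones. After TMM with all 12 libraries 7 were called as well, among them Mki67, Top2a, Fam111a, Uhrf1, Hist1h2ae and Hist1h2aj. Of the 3992 genes that were higher under every scaling in the Acly cohort 96.4% had a positive change in these other WT cells, against 40.4% of all genes tested. Of the 115 lower ones 87.0% had a negative change there, against 59.6% of all. Named protein-coding genes made up 2830 of the 3992, 44 of the 115 and 13685 of the 25136 tested. Shares within that class were not taken, so the sets compared differ in gene class. The resting WT libraries of the Pdha1 cohort also held much background, with 104102 to 109047 RPM of receptor genes. Limma called 0 of the 3992 higher in the 6 WT libraries of the Pdha1 cohort (background 0.0%), with 2471 at an unadjusted p under 0.05 and a median log2 change of 1.88 there, beside 3.10 in the Acly cohort. Without activated library 3 of the Pdha1 cohort it called 3085 of them higher (background 14.6% of 31081 genes), with a median of 2.84. The shares with the same sign were then 97.2% against 39.3% for the higher genes and 91.3% against 60.7% for the lower ones.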

How the data were processed

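RNA-seq of 24 mouse CD4 T cell libraries, 3 in each of 8 groups, was read single end at 75 bp after removal of ribosomal and globin RNA, per the labels' protocols. The authors deposited 1 table of RPM for 46981 Ensembl genes, and each library sums to 1000000 RPM. The builds GRCm38 and mm10 are named in the submitters' processing notes. No aligner, counter or annotation is given in the sources used here. The deposited RPM values are whole counts, corrected for collisions among 4096 molecular identifiers and scaled to 1000000; undoing this gave a whole number within 0.01 for 100% of values. That rule was read from the values, since the protocols name no identifiers, and it caps a count at 4095 before correction. Intervals and floors of 3 counts cover counting error only.

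Genes with at least 1 RPM in 3 of the 6 WT libraries of the Acly cohort were tested with limma 3.58.1 (trend and robust, R 4.3.3) on log2(RPM + 0.5), so fold changes of low genes are understated, with Benjamini-Hochberg adjustment at 0.05. Differences between activation effects came from fits of 12 libraries. edgeR 4.0.16 and DESeq2 1.42.0 were run as alternatives on the recovered counts after collision correction. Other alternatives were pseudocounts (0.1 and 1), filters (none, and 5 RPM), scalings, fits and each library left out in turn. The fits were tested on simulated data in which few genes changed, as many up as down, and the groups had the same composition. That test does not cover the difference in background between these groups. Names and positions are from GENCODE M21 on GRCm38, which held 46146 of the 46981 identifiers. Python 3.11.15, pandas 2.3.3 and scipy 1.17.1 were used for summaries.

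The members and the 50 lists (1778 of 1790 entries have a gene in the table) were chosen with earlier results of these data known. Genes to name were the key genes of each list, the 3 called members of each list with the smallest p, and the 12 largest rises and falls among protein-coding genes called alike on RPM and TMM, with non-overlapping groups and a mean of at least 20 RPM (rises) or 10 RPM (falls) in the higher group. Predicted models, smell and pheromone receptors and antigen receptor segments were left out. That rule takes 326 genes. The text describes 144 of them, and 45 other genes; both selections were made with the values known. Values of a few genes are not reported here.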

Additional observations from a re-analysis of the deposited data

Results flagged for a closer look

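The activation effect on Mki67 differed between the WT cells of the Acly cohort and those of the Pdha1 cohort in a test of the difference itself, by 4.48 on the log2 scale (limma adjusted p = 0.026). Mki67 was higher in 3 of 3 activated libraries than in every resting one of the Acly cohort, and its groups overlapped in the Pdha1 cohort. Without WT activated library 3 of the Pdha1 cohort the difference was 4.12 (limma adjusted p = 0.00273).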

How the results depend on the processing

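On RPM 13659 genes were called. The count was within 1.5 times of that under every alternative but DESeq2 on the recovered counts, with 8522. Higher genes, 6430 on RPM, numbered 10133 with receptor genes and 3992 with named protein-coding genes held constant. Lower genes, 7229 on RPM, numbered 4458 after TMM, 115 with receptor genes and 13170 with named protein-coding genes held constant, 4777 in edgeR and 2177 in DESeq2. With each library left out they numbered 4542 to 6759, with 4542 without activated library 2 and 4757 without resting library 3. The scalings to receptor genes and to named protein-coding genes, and the libraries left out of the comparison with knockout cells, were chosen after seeing the data. Genes whose activation effect differed between the WT cells of the 2 cohorts numbered 1, and 7 after TMM or without Pdha1 WT activated library 3. Against knockout cells they numbered 0, and 0 to 1 with a WT library left out. Where leaving out a library left a group of 2, the spread was pooled across groups. Depth limits genes at 0 to a floor of 3 counts.

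The replicate block, the replicate number as a term, called 6688 genes higher and 7868 lower, 14556 in all. The labels do not say that a number marks a shared animal or day. Deviations of libraries with the same number correlated at 0.09, 0.13 and 0.23 and those of other pairs at −0.18 to 0.08, over 16049 genes, and every library correlated best with its own number, a hint from the data and not the design.

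Of 3753 gene values under alternatives, 3432 kept their direction and side of the threshold, 220 lost the call, 23 gained one and 78 changed sign, in 38 genes. Over all genes that the naming rule takes, described or not, 85 of 6382 values changed sign, in 44 genes. Counts of list members stayed within 1.5 times in 1663 of 2000 cases. The log2 changes that turned sign were: with receptor genes held constant, Ppargc1a 0.016, Cdc25b 0.059, Slc7a11 0.071, Ifi204 0.085, Rsad2 0.088, Ifi203 0.11, Abcg1 0.24, Tfb1m 0.25, Vegfa 0.25, Kif23 0.25, Slc43a2 0.40, Cpt1a 0.41, Malt1 0.41, Gimap8 0.43, Ikzf4 0.48, Nudt7 0.50, Eif4ebp1 0.52, Mfn1 0.59, Tyms 0.62, Anln 0.65, Pdk1 0.69, Maf 0.73, Acss2 0.97, Acaca 1.08, Yars 1.10, Xist 1.11, Tcf7 1.30, Socs2 1.33, Ddx3y 1.40 and Gimap4 1.48; in edgeR, Acaca 0.015, Yars 0.022, Tcf7 0.12, Socs2 0.24, Gimap4 0.36, Xist 0.82 and Ddx3y 0.95; with named protein-coding genes held constant, mt-Nd5 −1.08, Ifit1 −0.95, Map1lc3b −0.87, Rps27 −0.55, Bcl2 −0.38, Il21 −0.19, mt-Co1 −0.10 and Ccnb1 −0.052; after TMM, Xist 0.028, Tcf7 0.18, Socs2 0.21, Ddx3y 0.30 and Gimap4 0.36; with DESeq2 size factor scaling, Tcf7 0.094, Socs2 0.13, Ddx3y 0.22 and Gimap4 0.28; in DESeq2, Tcf7 0.086, Socs2 0.21, Gimap4 0.34, Xist 0.69 and Ddx3y 0.97; with pseudocount 0.1, Ifit1 −0.054; with protein-coding genes held constant, mt-Nd5 −0.46, Ifit1 −0.42 and Map1lc3b −0.26. With each library left out in turn, these ranged as Ddx3y −0.85 to 1.17, Gimap4 −0.26 to 0.070, Ifit1 −0.66 to 0.79, Il21 −0.49 to 1.35, Socs2 −0.51 to 0.10, Xist −1.47 to 0.45, mt-Nd5 −0.24 to 0.31. Except for the scalings and what their construction shows, the cause was not tested.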
